A study of Mus musculus with 6 samples.

Results

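The Rab genes encode the Rab GTPases, small proteins that mark the membranes of a cell and steer vesicles between them. They were taken as every gene on the array whose symbol is Rab followed by a number and at most 1 further letter, without Rab3a and without the exchange factor gene Rab3il1, which the symbols also matched. This gave 58 of the 19057 genes named on the array, represented by 110 of its 45281 probes. Each gene was described by its brightest probe, selected on the mean raw intensity over all arrays, and the same probe came out when the mean log2 signal was used for all 58 genes. Symbols and brightness defined the members, but the family, its roles and the gene lists were chosen with earlier results of these data known. Rab32 was singled out for its difference on these same arrays, so its values are a description.

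Transcript levels had been measured on Illumina MouseWG-6 bead arrays in total RNA of the right dentate gyrus (DG), the hippocampal field made up mainly of granule cells. 3 mice had received repeated low doses of the glutamate receptor agonist kainic acid (KA) until status epilepticus (SE) developed, and are called KA-SE, while 3 control mice had received matching amounts of saline. All were male C57BL/6j mice of 6 to 8 weeks, the DG was collected 72 h after injection, and each mouse had 1 array. Only mice with long seizures of the severe classes had been kept in the KA-SE group, and the DG was cut out of slices under a microscope, so every cell type of the tissue contributed. In such bulk tissue, fewer cells of a type and less RNA per cell cannot be told apart.

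A Rab protein is a switch that is inactive when bound to GDP and active when bound to GTP. Exchange factors load GTP and thereby place a Rab on its membrane, GTPase-activating proteins end the active state, and GDP dissociation inhibitors carry the prenylated protein back through the cytosol. The active form binds effectors, such as motors, tethers and fusion factors, and the set of Rabs on a membrane gives it its identity as Golgi, early endosome, recycling endosome, late endosome or secretory vesicle. In neurons, the Rab3 proteins sit on synaptic vesicles and Rab5 and Rab11 proteins sort receptors in dendrites, while Rab32 and its relatives Rab38 and Rab29 serve lysosome-related organelles, such as melanosomes and platelet dense granules, and are linked to mitochondria, phagosomes and the kinase Lrrk2.

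The promoters of 3 genes of this lysosome-related class are printed, since Rab32 showed the widest difference between the groups among the Rab genes, and Rab29 and Rab27a had the next-smallest p-values within the class. Each runs from 250 bases before to 50 bases after the transcription start and is written 5′ to 3′ on the strand of the gene, from the RefSeq table of mouse assembly GRCm38.p6. That of Rab32 lies at chr10:10558158-10558457 on the minus strand, with the letters GAGGAAGT, an ETS element of the type bound by the myeloid factor PU.1, in capitals. That of Rab29 lies at chr1:131867027-131867326 on the plus strand. Of 2 entries for Rab27a, the one at chr9:73044560-73044859 holds none of the motifs searched, and the one shown lies at chr9:73063898-73064197 on the plus strand, with the E-box CACGTG in capitals.
Rab32: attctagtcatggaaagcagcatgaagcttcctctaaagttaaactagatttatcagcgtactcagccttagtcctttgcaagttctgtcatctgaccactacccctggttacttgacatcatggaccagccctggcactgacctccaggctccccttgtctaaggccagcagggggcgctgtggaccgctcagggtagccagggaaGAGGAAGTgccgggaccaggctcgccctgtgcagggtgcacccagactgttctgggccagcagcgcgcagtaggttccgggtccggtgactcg
Rab29: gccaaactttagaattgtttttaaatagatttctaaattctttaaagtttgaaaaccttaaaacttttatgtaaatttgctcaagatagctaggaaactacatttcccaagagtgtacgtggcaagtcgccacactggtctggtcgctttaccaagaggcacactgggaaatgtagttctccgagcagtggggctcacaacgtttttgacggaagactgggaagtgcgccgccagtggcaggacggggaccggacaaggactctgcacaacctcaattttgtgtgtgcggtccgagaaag
Rab27a: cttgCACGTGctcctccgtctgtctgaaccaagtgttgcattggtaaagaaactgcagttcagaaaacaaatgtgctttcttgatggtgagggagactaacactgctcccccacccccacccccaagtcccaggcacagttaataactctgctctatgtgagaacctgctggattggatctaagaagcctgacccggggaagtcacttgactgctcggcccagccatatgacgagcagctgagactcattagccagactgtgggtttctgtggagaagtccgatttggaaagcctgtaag

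The table held 58 entries for 47 of the 58 Rab genes, and Rab38 and Rab27b are only named. The motifs, which also included the cyclic AMP response element TGACGTCA, were chosen after the Rab32 sequence had been read, and nothing is drawn from the match. On either strand, GAGGAAGT was found in the promoters of Rab32 and Rab2b, 2 of the 58 entries, and in 3.2% of all 32851 promoters of the same length. CACGTG was found for 6 Rab genes, namely Rab20, Rab21, Rab23, Rab24, Rab27a and Rab5a, and in 7.15% of all promoters, and TGACGTCA for Rab25 and Rab5a and in 1.79%. In Rab32 the element starts 43 bases before the transcription start, and the Rab29 stretch shown holds none of the motifs.

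A probe counted as detected when its detection p-value, read against negative control probes, was under 0.05. Between 48.1% and 50.3% of all probes were detected on an array, and median raw intensities ranged from 47.8 to 63. Of the granule cell markers, Prox1, C1ql2, Lct and Trpc6 were detected on all 6 arrays and Calb1 on none. Transcripts of the choroid plexus, a tissue next to the hippocampus, set 2 of the saline arrays apart. The summed signal of 7 choroid plexus and ependyma markers lay between 10700 and 13800 in KA-SE and between 684 and 32000 in saline, with saline replicate 1 at the top and saline replicate 2 at the bottom.

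Of the 58 Rab genes, 49 were detected on all 6 arrays and were tested, and each array detected 49 or 50 of them. The brightest probes of Rab17, Rab19, Rab20, Rab25, Rab27b, Rab37 and Rab44 were detected on no array, and those of Rab2b and Rab30 on 1 array of each group. These 9 genes have only a bound and were not compared. Rab17 and Rab25 are known from epithelia and Rab44 from mast cells. No Rab gene was detected on all arrays of one group and missed on part of the other.

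Most Rab genes had nearly the same signal in KA-SE and saline DG. The log2 change of a gene, given as KA-SE minus saline after quantile normalization, had a median of 0.0025 over the 49 genes, beside -0.0012 over all 11222 genes tested, and without Rab32 the median was -0.0034. The middle of the Rab distribution, between the quartiles, ran from -0.06 to 0.09, beside -0.1 to 0.1 for all genes. For 30 of the 49 genes the change was smaller than 0.1, and it reached 0.2 for 5 genes. The SD between arrays of a group had a median of 0.138 for the Rab genes and 0.148 for all genes, wider than most of these changes. Changes above 0 were found for 25 genes and below 0 for 24, but when arrays were scaled to a common median instead, 14 lay above and 35 below 0 and the median was -0.13, beside a shift of -0.1 in the median of all probes kept.

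Differences were tested with limma, with Benjamini-Hochberg adjustment over all 21226 probes kept. Its p-values set each difference against the spread between mice of a group, moderated with that of all probes kept. Of all probes kept, 49 passed an adjusted p of 0.05, which is 0.231%, and of the brightest probes per gene 36 of 11222 passed, which is 0.321%. Among the 49 Rab genes, 1 passed, and since this was Rab32, the count was fixed by the choice and nothing is read from it. An unadjusted p under 0.05 was found for 2 Rab genes, Rab32 and Rab39, whereas 8.45% of all genes tested had one. The groups did not overlap for 5 Rab genes, all higher in KA-SE (Rab32, Rab39, Rab8b, Rab31 and Rab39b), and for 14.1% of all genes in either direction. An exact permutation test of 1 gene cannot go below a p of 0.1 with 3 arrays against 3.

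**Figure D1:**
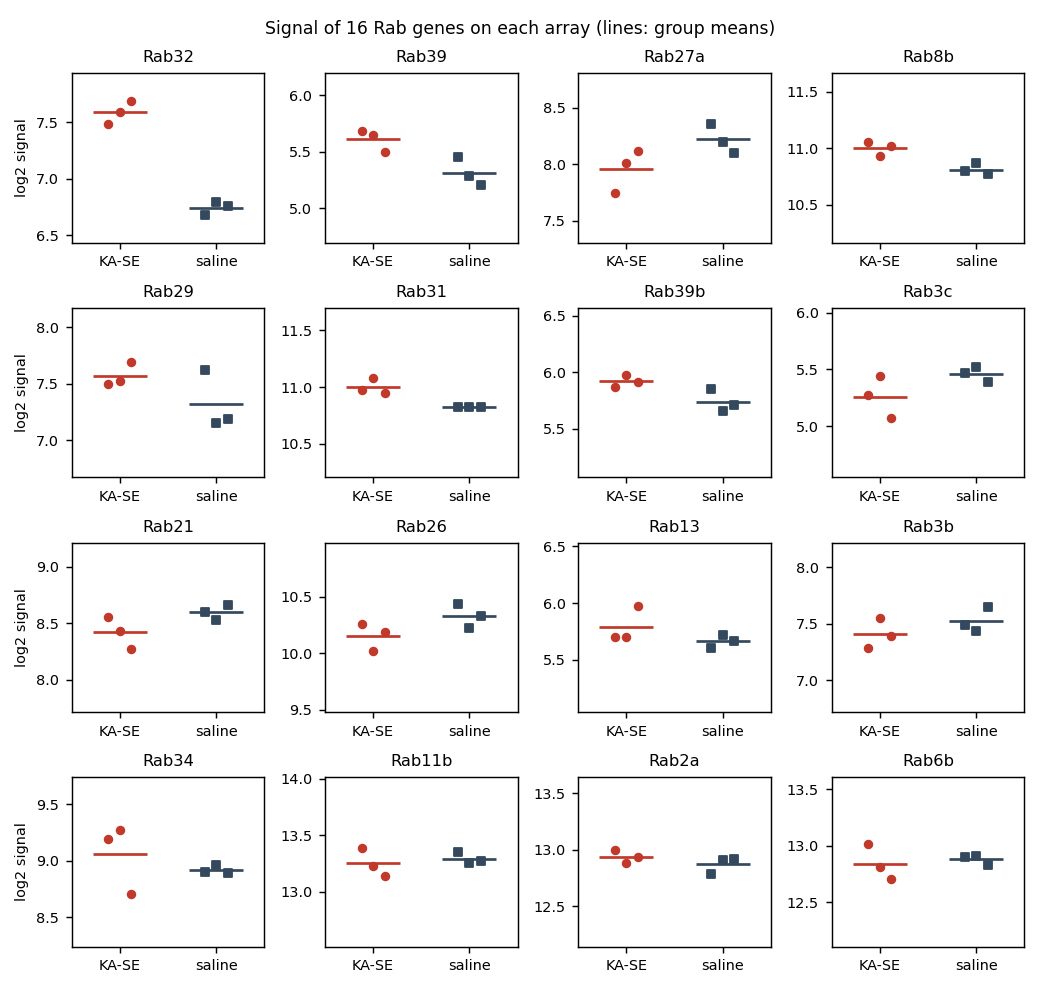
Log2 signal of 16 Rab genes on each array, KA-SE on the left (red circles, 3 mice) and saline on the right (blue squares, 3 mice), with a line at each group mean and the same span of the vertical axis in every panel. Rab32 is the one panel with a wide gap between the groups, with 7.49 to 7.69 in KA-SE and 6.68 to 6.80 in saline.

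Rab32, which guides cargo to lysosome-related organelles and anchors protein kinase A at mitochondria, had log2 signals of 7.49, 7.59 and 7.69 in KA-SE mice, against 6.68, 6.80 and 6.76 in saline mice. All KA-SE arrays lay above all saline arrays, by far more than the arrays of either group differed among themselves. The group means were 7.59 ± 0.10 in KA-SE and 6.75 ± 0.062 in saline (SD, n = 3 each), a 1.80-fold difference with a log2 change of 0.85 ± 0.111 (SE). Raw intensities were 200, 190 and 223 in KA-SE and 131, 114 and 182 in saline, where the raw value of saline replicate 3 came close to KA-SE on the array with the highest median intensity. The gene had a single probe, so no other probe could be compared. It was chosen for its difference on these same arrays, so its p-values are a description only. The limma adjusted p was 0.0251, and it was 0.212 when dim probes were not filtered out and 0.0733 on the authors' score, neither of them under 0.05. With 1 array left out at a time the log2 change stayed between 0.80 and 0.90, but the limma adjusted p was under 0.05 only without KA-SE replicate 1 (0.0239). It was 0.0801 when KA-SE replicate 2 was omitted, 0.079 for KA-SE replicate 3, 0.0947 for saline replicate 1, 0.0862 for saline replicate 2 and 0.119 for saline replicate 3.

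Markers of microglia and macrophages and of astrocytes lay above 0, as Rab32 did, the lowest change being 0.01 for S100b. Of 4 oligodendrocyte precursor markers, 2 lay above 0, Bmp4 at 1.04 (limma adjusted p = 0.0381) and Gpr17 at 1.28. The other 2, Pdgfra and Cspg4, changed by -0.24 and -0.03. Above 0 were also 7 of 7 oligodendrocyte markers and 7 of 8 endothelium markers. All 12 tested markers of microglia and macrophages were above 0, with a median log2 change of 0.63 and a range from 0.35 to 0.92, and their summed signal was 7310 to 10600 in KA-SE and 5170 to 5480 in saline. None of them passed the limma adjusted p of 0.05, while all 12 had an unadjusted p under 0.05. Itgam was detected on 1 KA-SE array and on no saline array. Of the 9 astrocyte markers, all were above 0 and 2 passed, the intermediate filament genes Gfap and Vim, with log2 changes of 1.89 and 1.55 and limma adjusted p of 0.00057 and 0.0472. Under median scaling 12 of the 12 microglia and macrophage markers and 8 of the 9 astrocyte markers were above 0. The summed astrocyte signal was 44000 to 46200 in KA-SE and 31300 to 33500 in saline. No marker of lymphocytes and neutrophils was detected on all arrays of a group, and of the perivascular macrophage markers Mrc1 was detected on all 6 arrays with a log2 change of 0.22, Pf4 on 2 KA-SE arrays and 1 saline array, Cd163 on 1 KA-SE array and Lyve1 on none. The part of these cells in the Rab32 difference was not tested.

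**Figure D2:**
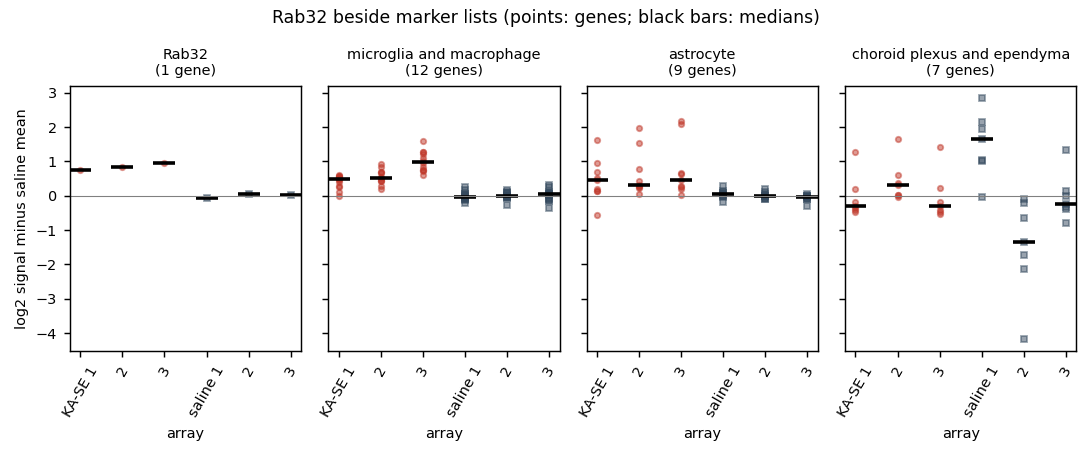
Log2 signal minus the saline mean of the gene, on each of the 3 KA-SE arrays (red) and 3 saline arrays (blue), for Rab32 and the tested markers of microglia and macrophages, astrocytes, and choroid plexus and ependyma. Points are genes and black bars their medians. Rab32 and the medians of microglia and macrophages and of astrocytes were higher on all KA-SE arrays than on the saline arrays. The choroid plexus medians were highest on saline replicate 1 and lowest on saline replicate 2.

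Of the relatives of Rab32, none passed the test. Rab29, which recruits the kinase Lrrk2 to membranes, had log2 signals of 7.50, 7.52 and 7.69 in KA-SE and 7.62, 7.15 and 7.19 in saline. Saline replicate 1 overlapped with the KA-SE arrays, and the log2 change was 0.25 ± 0.144 (SE, limma adjusted p = 0.748), or 0.40 without saline replicate 1 and 0.16 without saline replicate 2. Rab38, the closest relative of Rab32 and mutated in the chocolate coat colour mouse, had 5.42, 5.25 and 5.42 in KA-SE and 5.65, 4.86 and 5.23 in saline, with a log2 change of 0.11 ± 0.178 (SE, limma adjusted p = 0.959). In both genes the highest saline value was that of replicate 1, the array with the strongest choroid plexus signal. On these arrays Ttr, the main choroid plexus transcript, named after its values were seen, had 13.28, 13.64 and 13.43 in KA-SE and 14.85, 7.82 and 13.32 in saline, and the part of that tissue in the Rab29 and Rab38 values was not tested.

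Rab27a, which ties melanosomes and secretory granules to the actin cortex, pointed the other way. Its log2 signals were 7.75, 8.01 and 8.12 in KA-SE and 8.36, 8.20 and 8.10 in saline. The groups overlapped in 1 KA-SE and 1 saline array, and the change of -0.26 ± 0.132 (SE) did not pass (limma adjusted p = 0.681). It was -0.16 without KA-SE replicate 1. Rab27b, its paralog, was detected on no array.

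Of the 7 Rab genes of late endosomes, lysosomes and autophagy, none passed, and 6 lay above 0 with a median of 0.05, while 4 of 7 lay above 0 under median scaling. Rab39, a Rab of phagosomes and late endosomes, had log2 signals of 5.68, 5.65 and 5.50 in KA-SE and 5.45, 5.29 and 5.21 in saline. The groups did not overlap, by a narrow margin, and the log2 change was 0.29 ± 0.117 (SE, limma adjusted p = 0.526). Raw intensities of its 1 probe were low and overlapped, with 75.7, 69.7 and 71.1 in KA-SE and 70.9, 57.7 and 78.8 in saline. The change of Rab39 was 0.18 without background correction and 0.16 with a normexp offset of 50. Its paralog Rab39b, mutated in human intellectual disability with early parkinsonism, had 5.87, 5.98 and 5.91 in KA-SE and 5.85, 5.66 and 5.71 in saline, a change of 0.18 ± 0.111 (SE, limma adjusted p = 0.773). Here too the groups did not overlap, with the lowest KA-SE array just above saline replicate 1. Rab7, the Rab that drives fusion of late endosomes and autophagosomes with lysosomes, changed by 0.02 and the related Rab7b by 0.04, Rab9 and Rab9b, which return receptors to the Golgi, by 0.10 and 0.05, and the autophagy Rab24 by -0.06, with adjusted p of 0.943 to 0.990 in the limma fit.

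The Rab genes of regulated secretion all lay below 0 and none passed. Their 4 tested members had a median of -0.15. Rab3c, a synaptic vesicle Rab, had log2 signals of 5.27, 5.44 and 5.07 in KA-SE and 5.47, 5.52 and 5.39 in saline, a change of -0.20 ± 0.124 (SE, limma adjusted p = 0.775). KA-SE replicate 2 lay within the saline values, and the change was -0.11 without KA-SE replicate 3. Rab26, which directs synaptic vesicles to autophagosomes, had 10.26, 10.02 and 10.19 in KA-SE and 10.44, 10.22 and 10.33 in saline, a change of -0.18 ± 0.119 (SE, limma adjusted p = 0.806) that was -0.11 without KA-SE replicate 2. Rab3b, another synaptic vesicle Rab, had 7.29, 7.55 and 7.39 in KA-SE and 7.49, 7.44 and 7.65 in saline, a change of -0.12 for which omission of KA-SE replicate 1 gave -0.06, that of KA-SE replicate 2 gave -0.19 and that of saline replicate 3 gave -0.05. In both the groups overlapped, and Rab3d, a Rab of large secretory granules, changed by -0.09. The 4 tested markers of granule cells, the main neurons of the tissue, had a median of -0.24, with none passing the limma threshold and 1 in each direction at an unadjusted p under 0.05. Their part in these values was not tested.

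**Figure D3:**
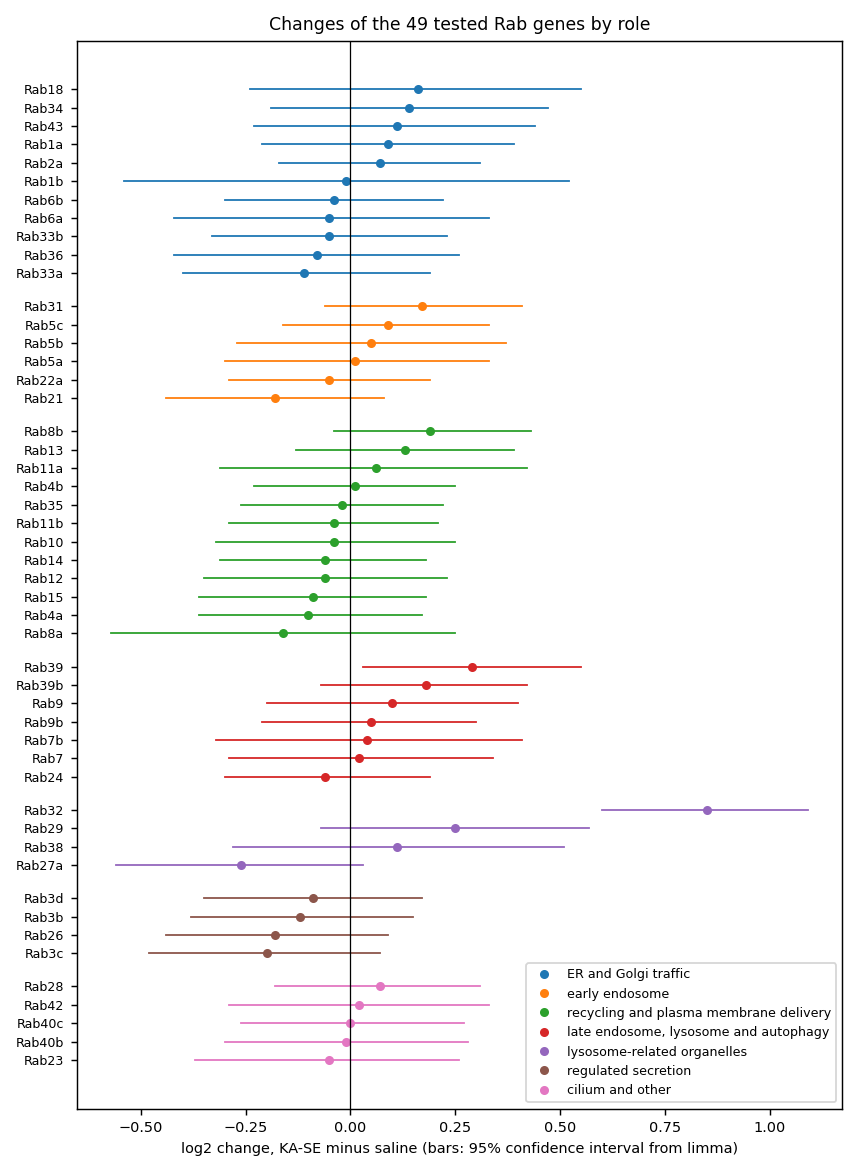
Log2 change, KA-SE minus saline, of the 49 tested Rab genes (points) with the 95% confidence interval from limma (bars, 3 arrays per group), ordered by size within 7 roles shown by colour. The intervals of Rab32 (0.60 to 1.09) and Rab39 (0.03 to 0.55) lie above 0, and all others reach across it. They are not adjusted for the number of genes. Rab32 was chosen for its difference on these arrays, and Rab39 did not pass (limma adjusted p = 0.526).

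Among Rab genes of early endosomes, 6 of 8 were tested, none passed, and their median was 0.03. Rab31, which carries cargo between the trans-Golgi network and endosomes, had log2 signals of 10.97, 11.08 and 10.95 in KA-SE and 10.82 on all 3 saline arrays. The saline values were almost identical, so the groups did not overlap although the change was only 0.17 ± 0.106 (SE, limma adjusted p = 0.772). Rab21, which takes integrins into endosomes, had 8.56, 8.43 and 8.27 in KA-SE and 8.60, 8.53 and 8.66 in saline. KA-SE replicate 1 lay between the saline values, and the change was -0.18 ± 0.118 (SE, limma adjusted p = 0.793), or -0.10 without KA-SE replicate 3. The 3 isoforms of Rab5, which organise early endosome fusion, changed by 0.01 for Rab5a, 0.05 for Rab5b and 0.09 for Rab5c, and Rab22a changed by -0.05. Under median scaling Rab31 alone of the early endosome genes stayed above 0.

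Recycling endosomes and delivery to the plasma membrane were represented by 13 Rab genes, of which 12 were tested and none passed. Their median was -0.04, with a range from -0.16 for Rab8a to 0.19 for Rab8b, paralogs that carry vesicles from the trans-Golgi network to the cell surface and the cilium. Rab8b had log2 signals of 11.06, 10.93 and 11.02 in KA-SE and 10.80, 10.87 and 10.77 in saline, without overlap (0.19 ± 0.107, SE, limma adjusted p = 0.731), whereas its second tested probe changed by 0.05. Rab8a had 9.33, 9.98 and 10.03 in KA-SE and 9.76, 9.99 and 10.07 in saline, so that KA-SE replicate 1 alone lay below all saline arrays. Rab13, a Rab of tight junctions, had 5.70, 5.70 and 5.97 in KA-SE and 5.60, 5.72 and 5.66 in saline. Only KA-SE replicate 3 lay above all saline arrays for Rab13, with a change of 0.13 that was 0.04 without this array. The second tested probe of Rab13 changed by 0.28, with overlapping groups, and the mean of its probes gave 0.2. Rab11b, the recycling endosome Rab prominent in brain, had 13.39, 13.23 and 13.14 in KA-SE and 13.35, 13.26 and 13.27 in saline, a change of -0.04 that turned to 0.04 with the mean of its probes and to 0.02 without KA-SE replicate 3. Its paralog Rab11a changed by 0.06, Rab4a and Rab4b, of fast recycling, by -0.10 and 0.01, Rab10, Rab12 and Rab14 by -0.04, -0.06 and -0.06, Rab15 by -0.09, and Rab35 by -0.02.

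The 14 Rab genes of endoplasmic reticulum and Golgi traffic included 11 that were tested, and none passed, with a median of -0.01 and a range from -0.11 for Rab33a to 0.16 for Rab18. Rab34, of Golgi and macropinosomes, had log2 signals of 9.19, 9.27 and 8.71 in KA-SE and 8.90, 8.96 and 8.89 in saline. KA-SE replicate 3 lay below all saline arrays and the other 2 above them. The change was 0.14, and it was 0.31 without that array, while omission of KA-SE replicate 1 gave 0.07 and that of KA-SE replicate 2 gave 0.03. Rab2a, which acts between endoplasmic reticulum and Golgi, had 13, 12.88 and 12.93 in KA-SE and 12.78, 12.91 and 12.92 in saline, a change of 0.07 that turned to -0.06 under median scaling. Rab6b, the neuronal form of the Golgi Rab6, had 13.01, 12.81 and 12.70 in KA-SE and 12.90, 12.91 and 12.83 in saline, a change of -0.04 that turned to 0.02 without KA-SE replicate 3. The groups overlapped in both genes, with the spread among KA-SE arrays of Rab6b wider than among saline arrays. Rab1a and Rab1b, which start transport out of the endoplasmic reticulum, changed by 0.09 and -0.01 at their brightest probes.

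The 6 remaining genes, of the cilium and of less defined roles, had 5 tested members with changes between -0.05 for Rab23, a regulator of hedgehog signalling, and 0.07 for Rab28, a Rab of cilia, and all 5 lay below 0 under median scaling. Where a gene had several tested probes, these did not always point one way. Of 21 such Rab genes, 11 had all tested probes on one side of 0. The widest difference was that of Rab1a, with -0.25 and 0.09, followed by Rab1b with -0.33 and -0.01 and Rab43 with -0.14 and 0.11. None of these probes passed the limma threshold.

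**Figure D4:**
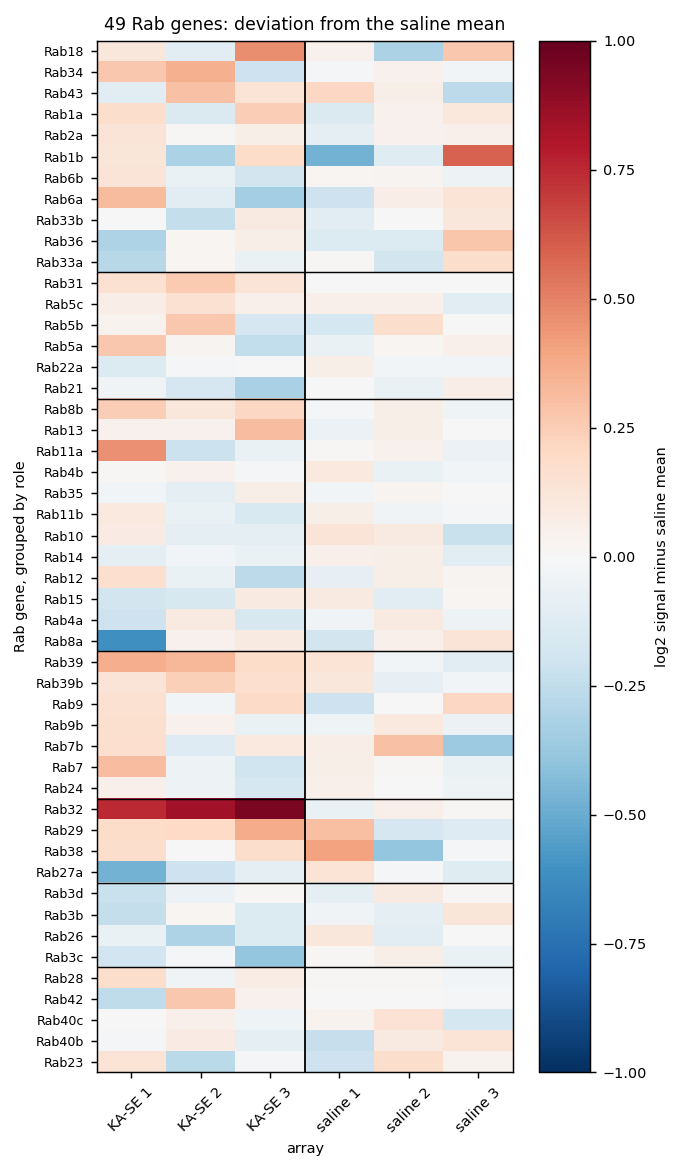
Log2 signal minus the saline mean (colour scale, red above and blue below) of the 49 tested Rab genes (lines) on the 3 KA-SE arrays, to the left of the 3 saline arrays (columns), with the genes grouped by role. Rab32 is the one gene that is deep red on all KA-SE arrays, and single arrays stand out for other genes, such as KA-SE replicate 1 for Rab8a (9.33) and saline replicate 3 for Rab1b (9.43).

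Genes that run the Rab cycle were compared in the same fit, and of 8 lists of such genes, none held a member past the limma threshold. Under median scaling, which moved the median of all probes kept by -0.1, the medians of all 8 lists lay below 0, between -0.25 and -0.07, so that those of prenylation, exchange factors and Rab32 partners changed sign. The list of prenylation and membrane delivery had 8 tested genes with a median of 0.06, with 0 at an unadjusted p under 0.05. Its smallest p-values were those of the GDP dissociation inhibitor gene Gdi2, the protease gene Rce1 and the methyltransferase gene Icmt, with log2 changes of 0.24, 0.18 and -0.15. Over the 27 tested exchange factor genes the median was 0.03. An unadjusted limma p under 0.05 was found for 2 of them, both above 0, beside 8.45% of all genes tested. One was Dennd1c, a gene of the DENN domain exchange factors, with log2 signals of 5.69, 5.80 and 5.48 in KA-SE and 5.13, 4.96 and 4.71 in saline. Only 2 of the 3 saline arrays detected the probe, so it was kept through the KA-SE group alone, where it was higher. Its values are therefore a description. The groups did not overlap, and the change of 0.72 ± 0.140 (SE) did not pass (limma adjusted p = 0.0928). The other was Rin2, an exchange factor gene for Rab5, with a change of 0.37 (limma adjusted p = 0.588), and Ccz1, which with Mon1 activates Rab7, changed by 0.20.

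Over the 33 tested genes of GTPase-activating proteins the median was -0.01, with 0 at an unadjusted p under 0.05. The smallest p-values belonged to Tbc1d12, Tbc1d10c and Tbc1d20, with changes of 0.23, 0.26 and -0.18. The probe of Tbc1d12 was detected on only 1 saline array, so it was kept through the KA-SE group alone. Effectors of early and recycling endosomes had a median of -0.01 over 15 genes, led by Micall1, Mical1 and Rab11fip4 with 0.26, 0.27 and -0.22. Of these, Micall1, a scaffold of tubular recycling endosomes, had an unadjusted p under 0.05 and a limma adjusted p of 0.593. Effectors of late endosomes and lysosomes had a median of -0.02 over 18 genes, led by Vps39, Vps18 and Rilpl2 with -0.27, -0.15 and 0.16. Golgi effectors and tethers had a median of -0.01 over 9 genes, and of -0.09 with the mean of each gene's tested probes. Among them, Golga2, which encodes the cis-Golgi tether GM130, had 6.83, 9.31 and 7.75 in KA-SE and 9.35, 8.77 and 9.10 in saline, a change of -1.11 ± 0.472 (SE, limma adjusted p = 0.567). KA-SE replicate 2 lay near the highest saline value, and the other 2 KA-SE arrays lay below all saline arrays. Golga2 had 5 probes, of which the brightest tested is given. It was the 1 gene of its list with an unadjusted limma p under 0.05, as Micall1 was of its own, beside 8.45% of all genes tested.

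Effectors on secretory vesicles lay below 0 for 9 of 9 tested genes, with a median of -0.16. No gene of the list passed the limma threshold, and 1 had an unadjusted limma p under 0.05, beside 8.45% of all genes tested. This was Rph3a, which encodes the Rab3 effector rabphilin, with log2 signals of 9.76, 9.85 and 9.73 in KA-SE and 10.11, 10.12 and 10.03 in saline. The groups did not overlap, and the change was -0.30 ± 0.107 (SE, limma adjusted p = 0.444). The active zone genes Rims1 and Rims4 changed by -0.28 and -0.25 (limma adjusted p = 0.678 and 0.681). The median of the list was -0.05 to -0.25 when 1 array was left out at a time.

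Among the partners of Rab32 and Rab38, no gene passed. This list of 21 tested genes holds the exchange factor genes Hps1 and Hps4, the effector gene Ankrd27, the kinase gene Lrrk2 and genes of the complexes that sort cargo to lysosome-related organelles. It had a median of 0.01, with 12 genes above and 9 below 0, whereas 5 lay above and 16 below 0 under median scaling with a median of -0.09, and there were none past the limma threshold and 0 at an unadjusted p under 0.05. The smallest p-values belonged to Hps6, Ap3m1 and Ap3d1, the first a gene of a sorting complex and the others genes of the adaptor complex AP-3, with changes of -0.30, -0.23 and -0.21. For Ap3m1 the KA-SE values of 7.23, 7.17 and 7.25 lay below the saline values of 7.46, 7.34 and 7.53, and its limma adjusted p was 0.653.

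**Figure D5:**
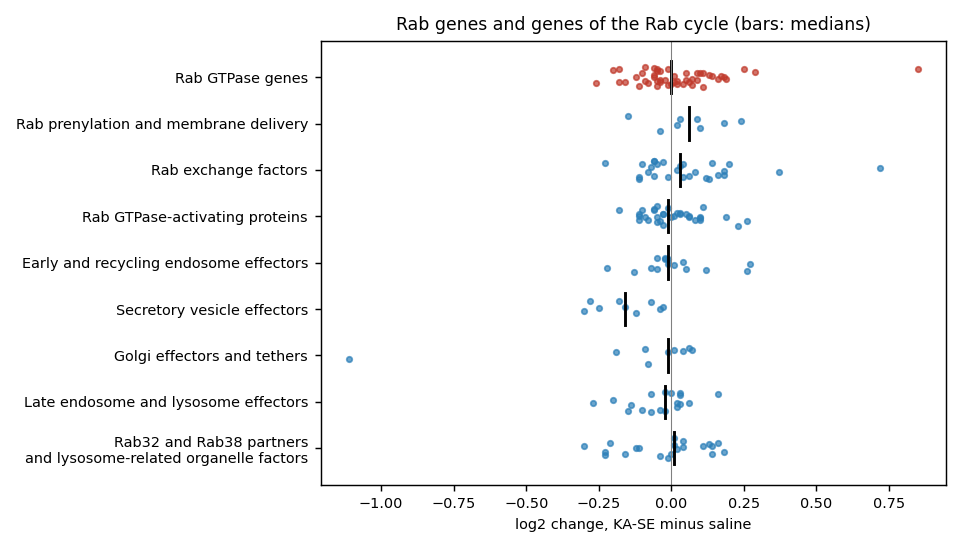
Log2 change, KA-SE minus saline, of the 49 tested Rab genes (red) and of the tested genes of 8 lists of the Rab cycle (blue), each point a gene and each black bar the median of its list, with points spread vertically for legibility. The medians lie between -0.16 and 0.06 on this quantile-normalized scale, those above 0 turn below 0 under median scaling, and the points farthest out are Rab32 at 0.85, Dennd1c at 0.72 and Golga2 at -1.11. Dennd1c was detected on all KA-SE arrays but not on all saline arrays, so it was kept through KA-SE alone.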

How the data were processed

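Total RNA of the right DG was hybridized to MouseWG-6 beadchips, 1 array per mouse, 3 KA-SE and 3 saline, and read in GenomeStudio. The authors deposited raw probe intensities on a linear scale, with a detection p-value for each, based per their methods on negative control and mismatch probes. They also deposited a table of background-corrected, transformed and normalized values, called a score here, whose log base and offset are unknown. The columns of the score run from 15 to 23.2 with a median of 18.1, rank probes as the raw intensities of the same sample do (Spearman correlation 1, and at most 0.9625 with another sample), and among bright probes span 0.478 to 0.52 units per log2 unit. For upstream software, versions were not given in the sources used here. Slide and scan were not used here, so no batch was tested. Groups came from the sample titles. In the raw table, the names of 2 KA-SE columns hold an extra digit, and their last digit was read as the replicate.

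Raw intensities were corrected by normexp, with negative controls inferred from the detection p-values and an offset of 16, quantile normalized and taken to log2 (neqc, limma 3.58.1, R 4.3.3). A probe was kept if its detection p-value was under 0.05 throughout at least 1 group, and groups were compared by limma with empirical Bayes moderation, two-sided, adjusted over all probes kept. The methods' permutation threshold cannot be reached by 1 probe with these arrays. The number of arrays limits precision. Probes were named by the platform annotation, updated through the RefSeq gene table of GRCm38.p6, and 34885 probes had 1 gene, 18 several and 10378 none listed. Rab3il1 was left out as an exchange factor.

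The members, roles, lists and tests were chosen with earlier results of these data known. Values on every array were to be given for Rab32, the 12 other Rab genes with the smallest p, the 3 brightest and any detected throughout 1 group only, and up to 3 genes per pathway list by p. Of 242 list symbols, 229 were matched, 1 by a synonym. Marker lists covered granule and pyramidal neurons, microglia and macrophages, perivascular macrophages, lymphocytes and neutrophils, astrocytes, oligodendrocytes and their precursors, endothelium, choroid plexus and ependyma, and red blood cells. Alternatives covered background correction, normalization, the score, the filter, variance prior, array weights, a replicate block, the choice among probes and omission of each array. The fit was tested on simulated data.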

Additional observations from a re-analysis of the deposited data

How the results depend on the processing

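The number of probes past the adjusted p of 0.05, 49 as reported, was 78 under median scaling, 81 with an intensity trend and robust moderation, 89 with array weights, 32 with a replicate block, 9 on the score of the value table and 0 without a filter on dim probes, and it ranged from 4 to 85 when 1 array was left out. Without the filter 3000 probes had an unadjusted limma p under 0.05, 5 of them brightest probes of Rab genes. Higher and lower probes were split 45 to 4 as reported and 63 to 15 under median scaling. The count of Rab genes past the threshold was 0 on the score and without the filter, and 0 to 1 with 1 array left out. Rab32 changed by 0.37 on the score, a compressed scale (adjusted p = 0.0733), by 0.85 without the filter (adjusted p = 0.212), and by 0.80 to 0.90 with 1 array left out. It was higher in KA-SE under all 16 alternatives, past the threshold under 9, with limma adjusted p from 0.0113 to 0.212, beside 0.0251 as reported. Rab32 was singled out for this difference on these same arrays, so these values show only how it depends on the processing. The median of the Rab genes moved to -0.13 under median scaling, -0.02 with array weights, and -0.01 to 0.02 with 1 array left out. Rab2a turned to -0.06 under median scaling, Rab11b to 0.04 with the mean of probes, and with 1 array left out Rab11b ran from -0.11 to 0.02 and Rab6b from -0.13 to 0.02, both above 0 only without KA-SE replicate 3. Alternatives were run gene by gene for 16 Rab genes, Rab32, the 12 with the next-smallest p and the 3 brightest. Those 12 kept their direction and did not pass. Over all 49 tested Rab genes, 25 lay above 0 as reported and 14 under median scaling, where Rab28, Rab5a, Rab5b and Rab5c were among those below 0. The cause of these shifts was not tested. Whether replicate numbers pair the arrays was not settled. Deviations of same-numbered arrays correlated at 0.02, 0.18 and 0.24. KA-SE replicates 2 and 3 correlated best with the saline array of the same number. KA-SE replicate 2 correlated at -0.2 with saline replicate 3, and KA-SE replicate 3 at -0.21 with saline replicate 2. KA-SE replicate 1 correlated best with saline replicate 2, at 0.05. With the replicate block 1 Rab gene passed, with Rab32 at 0.85 (adjusted p = 0.0366).

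Probes near background limit what can be said of the 9 Rab genes that were not tested, and 26 Rab genes had 1 probe.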

Other observations

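Rab3a, which was left out of the Rab genes described above, had log2 signals of 12.01, 11.79 and 12.10 in KA-SE and 11.90, 11.99 and 12.21 in saline, a change of -0.07 (limma adjusted p = 0.97). The exchange factor gene Rab3il1 had 5.80, 5.62 and 5.75 in KA-SE and 5.95, 5.32 and 5.52 in saline, a change of 0.13 (limma adjusted p = 0.941). The groups overlapped for both genes.

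Of the 4 markers of oligodendrocyte precursors, 2 lay above and 2 below 0. Of these, Bmp4, which encodes a secreted signal of the bone morphogenetic protein family, passed the limma threshold with a change of 1.04 (adjusted p = 0.0381), while Gpr17 changed by 1.28, Pdgfra by -0.24 and Cspg4 by -0.03 without passing. Medians of the remaining marker lists were 0.51 for oligodendrocyte precursors over 4 genes, 0.17 for oligodendrocytes over 7, 0.24 for endothelium over 8, -0.10 for pyramidal neurons over 4, 0.24 for red blood cells over 2 and 0.22 for the 1 tested marker of perivascular macrophages.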
